A study of Homo sapiens with 9 samples.

Results

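The BCL2 family decides whether the outer membrane of the mitochondrion stays closed or is opened during apoptosis. Pro-survival members such as BCL2, BCL-XL (gene BCL2L1) and MCL1 bind and hold the pro-death members. BAX and BAK open the membrane, and the BH3-only proteins either activate them or occupy the pro-survival members. Cytochrome c that leaves through the opened membrane starts the caspase cascade, and neuroblastoma cells are known to rely on BCL2, BCL-XL or MCL1 for survival. This account covers 10 listed genes of the family, chosen by name with earlier results of these data known. They are the pro-survival BCL2, BCL2L1 and MCL1, the pore-forming BAX and BAK1, the BH3-only BID, BBC3, PMAIP1 and BCL2L11, and BNIP3L, a mitophagy receptor of the outer membrane counted here with the pro-death members. Values of 8 of the 10 were read from a table of 22290 genes. BAK1 and BCL2L11 were not analysed here, so the pro-death side consisted of 5 genes and the pro-survival side of 3.

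RNA was sequenced from human cells labelled IMR-32, an established neuroblastoma line, to ask how the level of TRAP-1, a mitochondrial chaperone of the HSP90 family, bears on the transcriptome. There were 3 libraries of wild-type cells (parental), 3 with the genotype label TRAP-1 knockdown (KD), and 3 whose label is TRAP-1 overexpression (OE). Both modified lines had been developed earlier. Whether they came from the parental culture sequenced here, and whether either is a clone, are not stated in the sources used here. The vector each carries and whether an empty-vector control exists are not stated there either. Effects of selection or vector and effects of TRAP-1 therefore cannot be told apart. Values were regularized log2 expression values (rlog), which are scaled for library size and pulled toward the mean of each gene, so that differences are smaller than unshrunken log2 fold changes. The read depth of each library cannot be read from such values.

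TRAP1 itself went against the labels. Its rlog value was 10.67, 10.66 and 10.65 in parental, 10.79, 10.79 and 10.83 in the libraries labelled KD, and 10.67, 10.63 and 10.74 in those labelled OE. All 3 libraries labelled KD lay above all parental libraries, and those labelled OE overlapped parental. The difference from parental was 0.14 for KD (standard error 0.025, adjusted p = 1.76e-05 from limma) and 0.018 for OE (adjusted p = 0.643 from limma). KD and OE therefore name the labels of the libraries below, and no direction given for a member is one of lower or higher TRAP1 RNA. Because 28.5% of the exonic bases of TRAP1 are shared with other annotated genes, some of its reads may have been left out or shared.

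Markers of the labelled cell type were partly at low levels. Of 14 listed markers of adrenergic neuroblastoma 11 had values, and the transcription factors ISL1 and GATA2 were the most abundant, with mean rlog values of 9.29 and 9.20. MYCN, whose amplification IMR-32 is known for, had a mean rlog value of 2.54, and only 18.9% of all genes had a lower mean. PHOX2A (1.34) and the catecholamine enzyme TH (2.73) were also low, whereas KRT18 of the epithelial list was at 12.04 and FN1 of the mesenchymal list at 13.83. CASP8, the initiator caspase of death receptors that is known to be silenced in many MYCN-amplified neuroblastomas, lay between 10.87 and 10.97 in all 9 libraries. The list was thus split, since GATA3 (7.27), HAND2 (6.34) and CHGB (5.77) were at middle levels, and the low MYCN, PHOX2A and TH go against the label. The study's methods state that the line was authenticated, and the cells are called by their group names only.

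Other marker lists moved with the groups. The summed level of the 5 measured mesenchymal markers of 6 (log2 of the sum) was 14.24 to 14.25 in parental, 13.99 to 14.01 in libraries labelled KD and 14.81 to 14.82 in those labelled OE. This sum follows FN1, the most abundant of them, which fell by 0.96 in KD and rose by 0.55 in OE, whereas PRRX1 rose by 1.29 in KD and by 0.69 in OE (adjusted p = 3.01e-33, 8.17e-26, 3.14e-31 and 4.98e-23 from limma). COL1A2 and COL3A1 were near the bottom of the scale at 1.37 and 1.16. For the 4 measured epithelial markers of 6, led by KRT18, the sum was 12.49 to 12.51, 12.52 to 12.57 and 12.36 to 12.38 in the same order. Within that list KRT8 rose by 0.39 in KD and 0.40 in OE, CLDN4 fell by 0.57 in OE (adjusted p = 7.07e-12, 1.01e-11 and 3.8e-16 from limma), and EPCAM was low at 2.58. All 3 listed endothelial markers were measured, and their sum, led by PECAM1, was 9.49 to 9.51, 9.94 to 9.98 and 9.19 to 9.30, with CDH5 at 0.62. The adrenergic sum was 10.64 to 10.68, 10.52 to 10.56 and 10.56 to 10.64, and the immune marker PTPRC was between 2.60 and 2.68 in every library. The part of these shifts in the differences of the BCL2 family was not tested, and in bulk RNA fewer cells of a type and less RNA per cell cannot be told apart.

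Per kilobase of annotated exon, the family was dominated by MCL1. On this scale (rlog minus log2 of exonic kilobases) MCL1 stood at 12.19 ± 0.013 (SD, n = 3) in parental libraries, BAX at 10.68 ± 0.020 and PMAIP1 at 9.08 ± 0.021. BNIP3L followed at 8.86 ± 0.021, BCL2L1 at 8.02 ± 0.017, BID at 7.59 ± 0.025 and BBC3 at 7.37 ± 0.065. BCL2 was last at 4.998 ± 0.040, although its long annotated 3′ end (12612 exonic bases in all) lowers this value if shorter transcripts are used. Each neighbouring pair in this parental order differed by more than the spread of either gene.

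The order was not the same in all groups. BNIP3L passed PMAIP1 in the libraries labelled KD (9.30 against 8.83 per kilobase) and in those labelled OE (9.52 against 9.02). BCL2L1 fell below BID in the libraries labelled KD (7.33 ± 0.046 against 7.53 ± 0.040, SD, n = 3) and there came level with BBC3 (7.31 ± 0.067), from which it did not differ beyond the spread. In the libraries labelled OE it stayed above BID, at 7.71 against 7.51. Taken back to a linear scale, MCL1 made up 94.1% ± 0.085 of the summed per-kilobase level of the 3 pro-survival members in parental, 96.1% ± 0.12 in libraries labelled KD and 94.6% ± 0.072 in those labelled OE (SD, n = 3). The share of BCL2L1 was 5.22% ± 0.082, 3.27% ± 0.11 and 4.74% ± 0.067, and that of BCL2 stayed between 0.611% and 0.656% in all 9 libraries. Of the exonic bases of BCL2L1 41.3% are shared with another gene, against 0.0% for BID. If reads from shared bases were left out, the level and share of BCL2L1 are too low, and its place below BID in KD may not hold.

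**Figure D1:**
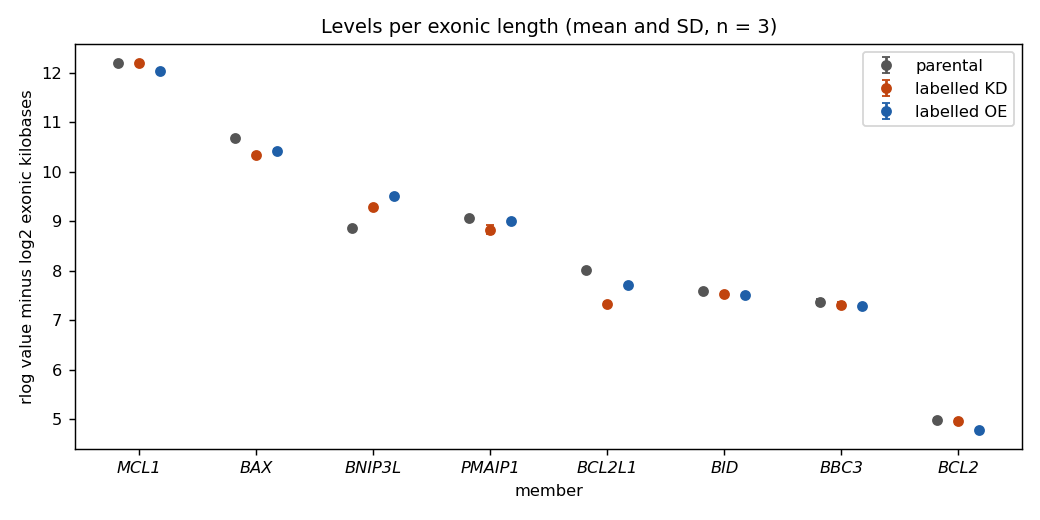
Level of each member per exonic length (rlog value minus log2 of exonic kilobases, mean and SD of 3 libraries) in parental libraries and in those labelled KD and OE. MCL1 was the highest at about 12.19 and BCL2 the lowest at about 4.998, and BNIP3L and PMAIP1 changed places between parental and the other groups.

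In the libraries labelled KD, 4 of the 8 members differed from parental. BCL2L1, BAX and PMAIP1 fell and BNIP3L rose. Of all 22290 genes 53.7% were called in this comparison (adjusted p under 0.05 from limma), 26.9% higher and 26.9% lower, so the count of 4 of 8 is close to the share among all genes. Every member lies well above the lowest levels, and of the 14000 genes with a mean rlog value of at least 5, tested alone, 72.8% were called in KD, a larger share than among the members. Of the 3 pro-survival members 1 was called, and of the 5 pro-death members 3. The median difference over the 8 members was -0.062, against -0.00051 over all genes.

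In the libraries labelled OE, 6 of the 8 members differed from parental. All 3 pro-survival members fell, as did BAX and BID, and BNIP3L rose. Among all genes 34.8% were called, 16.9% higher and 18.0% lower, and 52.8% of the 14000 genes with a mean rlog value of at least 5. The median difference over the 8 members was -0.13, against 0.00039 over all genes. Both comparisons use the same parental libraries. Nothing in the labels says that the libraries of a group came from separate cultures, so all p-values measure only the spread between these libraries, which may be technical.

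BCL2L1 encodes BCL-XL, which holds BAX and BH3-only proteins at the outer membrane. Its rlog value was 10.08, 10.07 and 10.11 in parental, 9.35, 9.44 and 9.41 in libraries labelled KD, and 9.76, 9.79 and 9.79 in those labelled OE. The parental libraries were the highest, those labelled KD the lowest and those labelled OE between them, with no overlap. BCL2L1 fell by 0.69 in KD (95% confidence interval -0.75 to -0.63, adjusted p = 6.99e-20 from limma) and by 0.31 in OE (interval -0.37 to -0.25, adjusted p = 1.35e-10 from limma). Only 0.983% of all genes had a lower difference in KD and 1.47% in OE.

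The neighbours of BCL2L1 on chromosome 20 were lower as well. The gene (ENSG00000171552) spans 31664452 to 31723989 on the minus strand of GRCh38, and 114 other genes with a mean rlog value of at least 5 lie in the same 20-Mb block. In KD 88.6% of these 114 were lower than parental, with a median of -0.27, and in OE 78.1% were, with a median of -0.098. The other blocks of chromosome 20, at 0 to 20, 40 to 60 and 60 to 80 Mb, had medians of -0.084, 0.056 and -0.029 in KD and of -0.12, -0.013 and -0.11 in OE. BCL2L1 lay below this median in both, with 6 neighbours lower than it in KD and 3 in OE. With block medians removed from each library, its difference was -0.40 in KD and -0.21 in OE, still called in both (adjusted p = 5.06e-14 and 1.6e-07 from limma). The cause of the lower values across the block was not tested. The exons of BCL2L1 share 41.3% of their bases with ABALON, and since the library kit does not mark strand, reads from the shared bases cannot be told apart.

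BCL2, the founding member of the family, had rlog values of 8.61, 8.67 and 8.68 in parental, 8.57, 8.62 and 8.67 in libraries labelled KD, and 8.44, 8.45 and 8.45 in those labelled OE. The parental libraries and those labelled KD overlapped, and all 3 labelled OE lay below them. BCL2 fell by 0.21 in OE (interval -0.28 to -0.14, adjusted p = 1.09e-05 from limma), while its difference in KD was -0.037 (interval -0.11 to 0.035, adjusted p = 0.398 from limma). The gene (ENSG00000171791) spans 63123346 to 63320128 on chromosome 18, and its 51 neighbours had a median difference of 0.0051 in OE.

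MCL1 encodes a short-lived protein that holds BAK and is a preferred partner of NOXA. MCL1 stood at rlog values of 14.82, 14.84 and 14.83 in parental, 14.85, 14.84 and 14.84 in libraries labelled KD, and 14.67, 14.66 and 14.66 in those labelled OE. The libraries labelled OE were lower than all others, and those labelled KD began where the parental values ended. MCL1 fell by 0.16 in OE (interval -0.18 to -0.14, adjusted p = 2.84e-14 from limma). Its difference in KD was 0.017 (adjusted p = 0.186 from limma), and this sign depended on the scaling, since quantile normalization gave -0.072 and removal of block medians -0.025, both called (adjusted p = 7.9e-07 and 0.0458 from limma). The gene (ENSG00000143384) lies on chromosome 1 from 150560895 to 150579738.

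**Figure D2:**
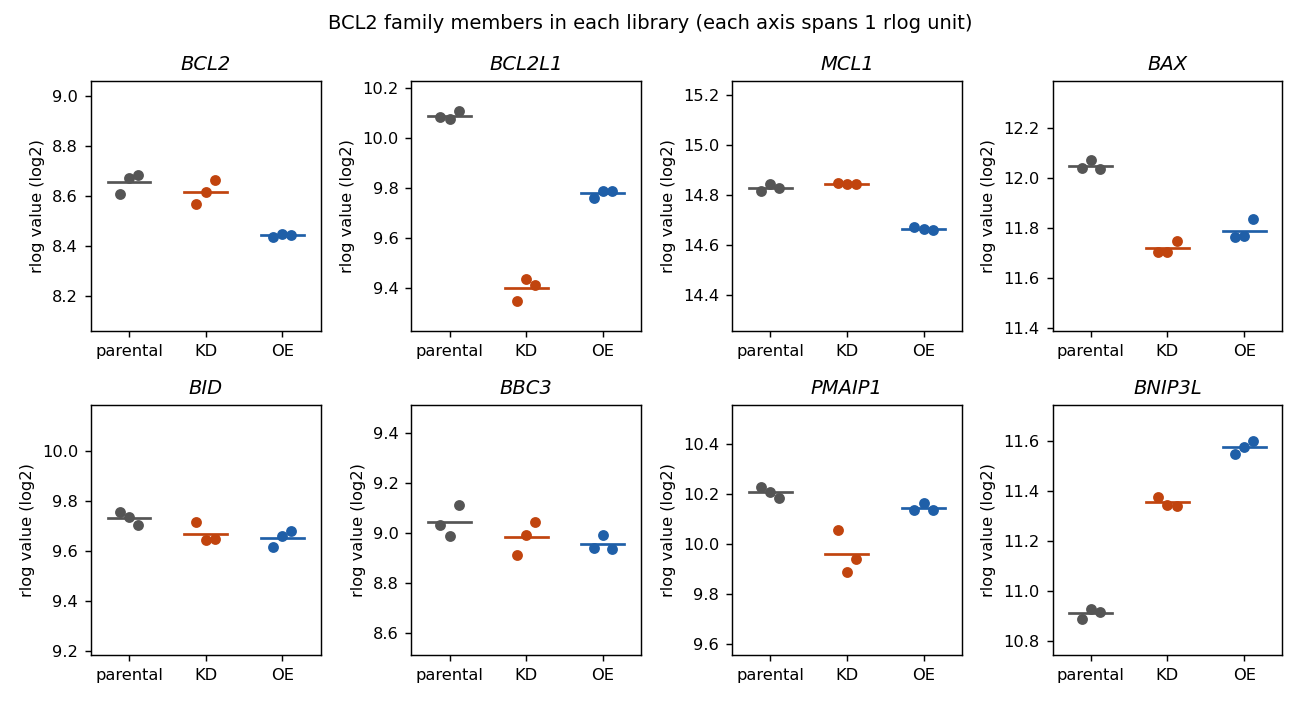
Regularized log2 value of each of the 8 members in each library, with a bar at the mean of each group of 3 and the same span of 1 unit on every axis. BCL2L1 and BAX were highest in parental, BNIP3L was lowest there, and BCL2 and MCL1 were lowest in the libraries labelled OE.

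Among the pro-death members, BAX fell in both comparisons. It encodes the effector that moves from the cytosol to the outer membrane and forms pores. The rlog values of BAX were 12.04, 12.07 and 12.04 in parental, 11.70, 11.70 and 11.75 in libraries labelled KD, and 11.77, 11.77 and 11.84 in those labelled OE. Every parental library lay above every other library. BAX fell by 0.33 in KD (interval -0.37 to -0.29, adjusted p = 3.04e-15 from limma) and by 0.26 in OE (interval -0.30 to -0.22, adjusted p = 4.71e-12 from limma). On chromosome 19, where BAX (ENSG00000087088) spans 48954815 to 48961798, the 326 neighbours had medians of -0.021 and -0.012, so the block did not move with it.

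PMAIP1 encodes NOXA, a BH3-only protein that binds MCL1 and is induced by stress. For PMAIP1 the rlog value was 10.23, 10.21 and 10.18 in parental, 10.06, 9.89 and 9.94 in libraries labelled KD, and 10.14, 10.16 and 10.13 in those labelled OE. The libraries labelled KD were the lowest, with the widest spread, and those labelled OE lay just under parental. PMAIP1 fell by 0.25 in KD (interval -0.31 to -0.18, adjusted p = 3.83e-08 from limma). In OE the difference was -0.062 (interval -0.13 to 0.0017, adjusted p = 0.131 from limma), and it was called with library medians removed (-0.08) and with block medians removed (-0.097). Of its 48 neighbours on chromosome 18, 46 had a higher difference in KD than PMAIP1 (ENSG00000141682, 59899996 to 59904305).

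BID links death receptors to mitochondria, since caspase-8 cuts it into its active form. Its rlog value was 9.75, 9.73 and 9.70 in parental, 9.71, 9.64 and 9.65 in libraries labelled KD, and 9.61, 9.66 and 9.68 in those labelled OE. Libraries labelled KD overlapped parental, and those labelled OE lay below parental by a narrow gap. The difference was -0.062 in KD (adjusted p = 0.0738 from limma) and -0.081 in OE (interval -0.14 to -0.021, adjusted p = 0.0296 from limma). The OE call was lost without parental replicate 1 (-0.069), parental replicate 2 (-0.079), OE replicate 1 (-0.063) or OE replicate 2 (-0.085), and also under quantile normalization and with block medians removed (-0.037). The KD difference was called without KD replicate 1 (-0.085) and with library medians removed (-0.073).

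BBC3 encodes PUMA, a BH3-only protein that binds all pro-survival members. BBC3 had rlog values of 9.03, 8.99 and 9.11 in parental, 8.91, 8.99 and 9.04 in libraries labelled KD, and 8.94, 8.99 and 8.93 in those labelled OE. The groups overlapped. Neither the difference in KD (-0.062, interval -0.14 to 0.013, adjusted p = 0.158 from limma) nor that in OE (-0.088, interval -0.16 to -0.013, adjusted p = 0.0613 from limma) was called. It was called in KD without KD replicate 3 (-0.093), and in OE without parental replicate 2 (-0.12), without KD replicate 1 (-0.088) and with library medians removed (-0.11).

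BNIP3L, also called NIX, was the only member to rise in either comparison with parental. It is a receptor that tethers mitochondria to the autophagosome, with a BH3-like region, and is a known target of hypoxia-inducible factors (HIF). Its rlog value was 10.89, 10.93 and 10.92 in parental, 11.38, 11.34 and 11.34 in libraries labelled KD, and 11.55, 11.57 and 11.60 in those labelled OE. Parental libraries were the lowest and those labelled OE the highest, with no overlap. BNIP3L rose by 0.44 in KD (interval 0.40 to 0.49, adjusted p = 4.06e-18 from limma) and by 0.66 in OE (interval 0.62 to 0.71, adjusted p = 9.08e-22 from limma). Of all genes 96.5% had a lower difference in KD and 99.7% in OE. Its 107 neighbours on chromosome 8 (ENSG00000104765, 26383054 to 26505636) had medians of 0.0029 and 0.052.

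**Figure D3:**
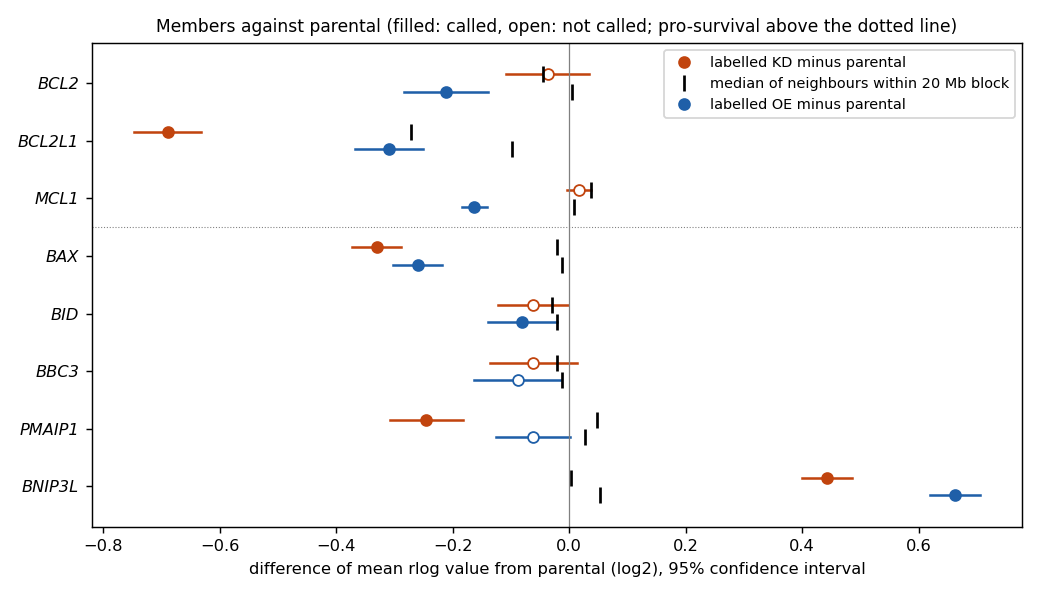
Difference of the mean rlog value from parental with its 95% confidence interval for each member, with filled points for called and open points for not called differences and a black tick at the median of the neighbours in the same 20-Mb block. BCL2L1 at -0.69 and BNIP3L at 0.66 marked the ends of the range, and the neighbour medians of BCL2L1 were the only ones far from 0, at -0.27 and -0.098.

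The libraries labelled OE and KD were also compared directly. Here 6 of 8 members were called, against 47.3% of all genes and 65.5% of those with a mean rlog value of at least 5, with 4 of 8 higher in OE (23.5% of all genes) and 2 of 8 lower (23.8% of all genes). MCL1 and BCL2 were lower in OE by -0.18 and -0.17 (adjusted p = 7.29e-16 and 1.01e-04 from limma). BCL2L1 was higher by 0.38, BNIP3L by 0.22, PMAIP1 by 0.18 and BAX by 0.070 (adjusted p = 4.36e-13, 1.74e-10, 8.17e-06 and 0.00479 from limma). The neighbours of BCL2L1 were higher in OE as well, with a median of 0.20. With block medians removed, the difference of BCL2L1 was 0.18, still called (adjusted p = 1.46e-06 from limma). The call of BAX was lost without OE replicate 3 (0.048). BID and BBC3 had differences of -0.019 and -0.026 (adjusted p = 0.642 and 0.602 from limma). The pro-survival members thus differed in opposite directions, with BCL2L1 lowest in KD and BCL2 and MCL1 lowest in OE, whereas the 3 called pro-death members were all higher in OE.

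Pro-survival and pro-death members were set against each other in each library, as the mean difference from the parental mean over each side. The pro-survival mean was -0.27, -0.22 and -0.22 in libraries labelled KD and -0.23, -0.22 and -0.23 in those labelled OE. For the pro-death side it was -0.036, -0.075 and -0.044 in KD and 0.012, 0.043 and 0.048 in OE. By the mean, the pro-survival side was lower than in parental in all 6 of these libraries and the pro-death side lay closer to the parental mean, at -0.052 in KD and 0.034 in OE. The pro-death median was lower, at -0.10 in KD and -0.076 in OE. The pro-survival median was -0.037 in KD, where BCL2L1 alone was called, and -0.21 in OE, where all 3 were.

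The balance of pro-death minus pro-survival was 0.19 ± 0.042 in KD and 0.26 ± 0.014 in OE (SD, n = 3), with a parental SD of 0.018. This balance rested in large part on BNIP3L. Without it the balance was 0.062 ± 0.042 in KD and 0.11 ± 0.013 in OE, since the other 4 pro-death members averaged -0.18 and -0.12. With the median over members in place of the mean it was -0.063 ± 0.025 in KD and 0.14 ± 0.020 in OE, so its sign in KD depended on how the members were averaged. In KD the pro-survival mean came mainly from BCL2L1, whose difference went from -0.69 to -0.40 with block medians removed. The balance was not computed with block medians removed, so how much of it remains in KD is not known.

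**Figure D4:**
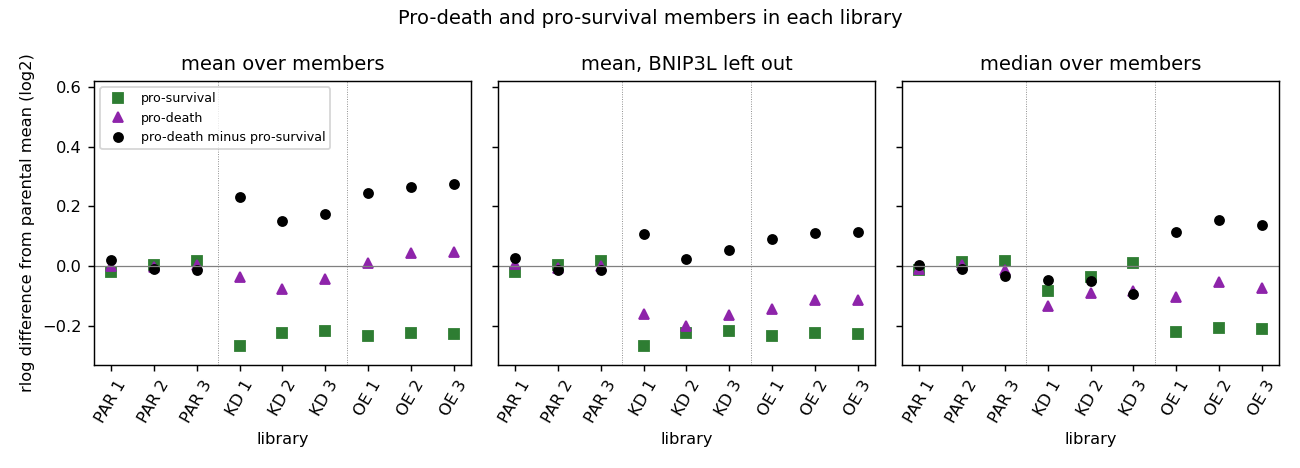
Mean difference from the parental mean over the 3 pro-survival and the 5 pro-death members, and their difference, in each of the 9 libraries, with the mean over all members, the mean without BNIP3L and the median in separate panels. The balance lay above 0 in all 6 libraries labelled KD or OE by the mean, and below 0 in the 3 labelled KD by the median.

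Pairs of members whose proteins bind each other were compared within each library, a choice made after the values were seen. NOXA and MCL1 form such a pair. PMAIP1 minus MCL1, relative to parental, was -0.17, -0.33 and -0.28 in libraries labelled KD and 0.087, 0.12 and 0.095 in those labelled OE. The pair thus shifted toward MCL1 in all 3 libraries labelled KD and toward PMAIP1 in all 3 labelled OE. For BAX minus BCL2L1 the shift was 0.39, 0.31 and 0.38 in KD and 0.044, 0.018 and 0.087 in OE, where both genes fell by similar amounts. BAX minus BCL2 went the other way in KD, at -0.26, -0.31 and -0.31, and was -0.065, -0.075 and -0.0052 in OE. BNIP3L minus BCL2L1 was computed too and shifted most, by 1.20, 1.08 and 1.11 in KD and by 0.96, 0.96 and 0.99 in OE.

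Genes whose values over the 9 libraries were most like those of a member were taken among 9956 genes with a mean rlog value of at least 8. The 9 libraries form 3 groups, so Pearson's r mostly reads the order and spacing of the group means and is given as a description. Closest to BNIP3L were GLRA2 (0.9979), BNIP3 (0.9976), ENO2 (0.9963), TRIM9 (0.9957) and PDE4B (0.9951), and 118 genes had an r over 0.95. Closest to BCL2L1 were SLC7A1 (0.9994), TUBB4B (0.9971), SLC39A14 (0.997), CYB5R2 (0.9968) and SLC3A2 (0.9968), with 851 genes over 0.95. None of these 5 lies on chromosome 20.

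BNIP3, the closest relative of BNIP3L and likewise a mitophagy receptor, had rlog values of 12.11, 12.12 and 12.13 in parental, 12.68, 12.67 and 12.68 in libraries labelled KD, and 12.96, 12.95 and 12.95 in those labelled OE. The 3 groups were far apart and in the same order as for BNIP3L. BNIP3 rose by 0.56 in KD (adjusted p = 1.84e-24 from limma) and by 0.83 in OE (adjusted p = 1.1e-27 from limma), and lies on chromosome 10, where the neighbours had medians of 0.011 and 0.019.

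Promoter sequences are shown for 3 members that fell and for BNIP3 as the relative that rose. The RefSeq table of GRCh38.p14 (250 bases before to 50 after the start) matched 6 of the 8 members, and the start listed at the top was used where there were several. Capitals mark ACGTG or GCGTG on either strand, the core of the element that HIF is known to bind, chosen after the values were seen. CACGTG holds ACGTG on both strands and counts 2 times. The windows are chr20:31723914-31724213 (minus) for BCL2L1, chr19:48954625-48954924 (plus) for BAX, chr18:59899746-59900045 (plus) for PMAIP1 and chr10:131981874-131982173 (minus) for BNIP3, each printed in the direction of the gene.
BCL2L1: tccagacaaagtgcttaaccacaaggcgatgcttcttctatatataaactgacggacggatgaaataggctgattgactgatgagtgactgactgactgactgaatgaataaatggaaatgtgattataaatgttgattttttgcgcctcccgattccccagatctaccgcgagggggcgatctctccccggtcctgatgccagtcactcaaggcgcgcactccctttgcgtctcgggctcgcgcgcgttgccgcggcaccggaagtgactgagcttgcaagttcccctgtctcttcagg
BAX: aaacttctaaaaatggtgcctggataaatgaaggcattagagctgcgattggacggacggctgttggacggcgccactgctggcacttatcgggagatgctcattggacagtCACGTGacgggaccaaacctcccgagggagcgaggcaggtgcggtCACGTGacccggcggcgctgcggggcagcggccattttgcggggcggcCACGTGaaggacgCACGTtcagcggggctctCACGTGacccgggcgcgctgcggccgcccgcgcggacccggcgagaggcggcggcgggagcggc
PMAIP1: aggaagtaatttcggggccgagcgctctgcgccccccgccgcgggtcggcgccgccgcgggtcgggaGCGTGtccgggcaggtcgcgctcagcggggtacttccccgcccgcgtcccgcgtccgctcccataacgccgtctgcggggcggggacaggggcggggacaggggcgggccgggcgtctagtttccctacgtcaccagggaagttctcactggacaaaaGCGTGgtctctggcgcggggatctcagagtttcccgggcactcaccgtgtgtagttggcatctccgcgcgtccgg
BNIP3: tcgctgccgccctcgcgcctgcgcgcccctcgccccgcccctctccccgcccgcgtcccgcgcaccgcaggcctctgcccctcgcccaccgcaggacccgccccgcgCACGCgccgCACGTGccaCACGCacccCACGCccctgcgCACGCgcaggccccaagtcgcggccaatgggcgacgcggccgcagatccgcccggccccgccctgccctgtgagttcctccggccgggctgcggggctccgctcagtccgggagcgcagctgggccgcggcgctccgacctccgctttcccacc
BNIP3 held 6 matches, BAX 9, PMAIP1 2 and BCL2L1 0. Of all 27305 promoters 48.4% held at least 1, with a mean of 0.904, and 4 of the 6 members did. Because CACGTG counts 2 times, the counts of BAX and BNIP3 are not numbers of separate sites and are not compared. A match is a description of these letters only.

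Other members of the BCL2 family were taken from lists written from knowledge of the pathway. Of 13 listed, 11 had values. In KD 5 rose and 3 fell (72.7% called, against 53.7% of all genes), and in OE 3 rose and 1 fell (36.4%, against 34.8%). Of the genes with a mean rlog value of at least 5, 72.8% were called in KD and 52.8% in OE, so the family was at or under that share, and the lists below are to be read against it too. Of the other pro-survival genes, BCL2A1, an NF-kB target, rose by 0.17 in KD and fell by 0.50 in OE (adjusted p = 0.00225 and 1.34e-10 from limma), while BCL2L2 had differences of 0.097 and 0.056 that were not called. Among the 6 other pro-death genes, BNIP3, BAD and BMF rose and HRK, BIK and BOK fell in KD, HRK by 0.31, BIK by 0.22 and BOK by 0.20 (adjusted p = 1.21e-06, 5.86e-05 and 2.09e-06 from limma). BOK, a BAX-like effector, rose by 0.15 in OE (adjusted p = 2.86e-04 from limma). Of the 3 measured divergent members only BCL2L13, also a mitophagy receptor, was called, by 0.16 in KD (adjusted p = 5.05e-07 from limma).

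Downstream of the mitochondrion, 2 of 5 reported genes of the apoptosome and its caspases fell and 2 rose in KD (80.0% called, against 53.7% of all genes), and 0 fell and 1 rose in OE, where 34.8% of all genes were called. CYCS, the cytochrome c that BAX releases, fell by 0.33 in KD (adjusted p = 2.6e-17 from limma), whereas CASP9 rose by 0.16 and CASP6 by 0.15. In OE APAF1, the scaffold of the apoptosome, rose by 0.13 (adjusted p = 1.88e-04 from limma). Of the 6 inhibitors of apoptosis 4 fell and 1 rose in KD (83.3% called, against 53.7% of all genes), and 3 fell and 1 rose in OE (66.7%, against 34.8%). Several KD calls were near the threshold (adjusted p = 0.0424 for XIAP, 0.0391 for BIRC6 and 0.04 for BIRC7 from limma). Libraries labelled KD overlapped parental for XIAP and BIRC6, and BIRC7 was low, at a mean rlog value of 2.66. BIRC2 fell by 0.25 and 0.089, BIRC3 by 0.10 and 0.20, and XIAP by 0.057 and 0.094 in KD and OE, and survivin (BIRC5) rose by 0.047 in OE. HTRA2, a protease that counters these inhibitors, rose by 0.23 in KD (adjusted p = 7.69e-10 from limma), with 32.3% of its exonic bases shared with other genes.

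Upstream, 11 of 12 listed genes of the death receptor pathway, which reaches the mitochondrion through BID, had values. In KD 4 fell and 1 rose (45.5% called, under the 53.7% of all genes), and in OE 5 fell and 2 rose (63.6%, against 34.8%). FAS fell by 0.34 and 0.37 and the TRAIL receptor TNFRSF10A by 0.19 and 0.34 in KD and OE (adjusted p = 2.91e-11, 1.32e-11, 1.04e-06 and 2.76e-11 from limma). The adaptor FADD fell by 0.24 and 0.22, with 59.2% of its exonic bases shared with another gene, and TRADD rose by 0.30 in KD. CASP8 had differences of -0.032 and -0.031 that were not called. Of the 3 channels of the outer membrane, VDAC1 and VDAC3 fell in KD by 0.064 and 0.17, VDAC1 rose in OE by 0.040, and VDAC2, which is known to hold BAK, was not called in either.

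**Figure D5:**
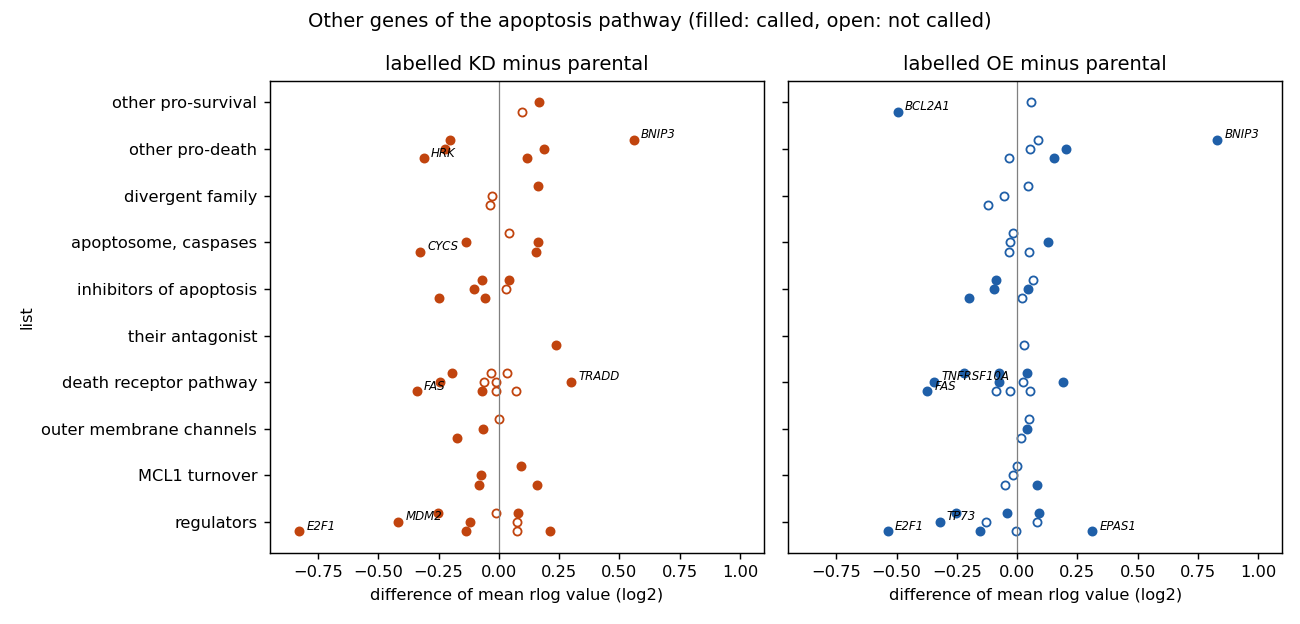
Difference of the mean rlog value from parental for the reported genes of the other apoptosis lists, with libraries labelled KD on the left and OE on the right, filled points for called and open points for not called genes, and names beyond 0.28. BNIP3 at 0.56 and 0.83 lay farthest to the right and E2F1 at -0.83 and -0.54 farthest to the left.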

How the data were processed

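RNA of 9 libraries, 3 per group, was sequenced from TruSeq v2 libraries. According to the submitters' processing notes and the methods, the authors used cutadapt for trimming, HISAT2 for alignment to GRCh38 and featureCounts for counts per gene, dropped genes below 10 counts in total, and deposited log2 values regularized with DESeq2 (rlog), from which the depth of each library cannot be read. Of its columns 3 matched no sample and were not used. Of 22290 Ensembl identifiers 22195 were matched to GENCODE release 44. Group means were compared in all 9 libraries with limma 3.58.1 (R 4.3.3; moderated linear model with a variance trend), two-sided, with Benjamini-Hochberg adjustment over 22290 genes and calls at an adjusted p under 0.05. The script was tested on simulated data. Some listed genes are not reported here. Members and lists were chosen with earlier results of these data known. Named were all members, TRAP1, up to 4 genes per list of 3 or more with the largest difference, CASP8, BNIP3, BIRC5, CYCS and APAF1; genes beyond these were named after their values were seen. Alternatives left out each library, used only the groups compared, no variance trend, a mean rlog of at least 5, library medians, quantiles, a replicate block, 20-Mb block medians and other call rules.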

Additional observations from a re-analysis of the deposited data

How the results depend on the processing

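The depth of each library cannot be read from rlog values, and small differences of genes at low levels are the least certain. Leaving out 1 library at a time gave 4 to 5 called members in KD, 5 to 7 in OE and 5 to 6 in OE against KD, and a balance of 0.16 to 0.20 in KD and 0.26 to 0.27 in OE. With a difference over 0.5 also required, 1, 1 and 0 members were called, because most differences of called members were smaller. The balance without BNIP3L was 0.06 in KD and 0.11 in OE, and with the median it was -0.06 and 0.14. Some differences that were not called as reported changed sign, and the cause was not tested: BCL2 in KD with block medians removed (0.0074), MCL1 in KD with quantile normalization (-0.072) and block medians removed (-0.025), both then called, TRAP1 in OE without OE replicate 3 (-0.012, and 0.014 to 0.042 without other libraries) and with library medians removed (-3.9e-05), and in OE against KD BID (-0.033 to 0.004) and BBC3 (-0.061 to 0.005) over libraries left out. TRAP1 in OE was called with block medians removed (0.06). The deviations of same-numbered libraries correlated between -0.12 and 0.268, over 0.1 in 2 of 9 pairs. With parental these correlations lay between -0.12 and 0.021. For KD with OE they were 0.218, 0.041 and 0.268, against -0.262 to 0.067 for different numbers. Whether replicate numbers pair the libraries was thus not settled. With the replicate number as a block, 4, 7 and 6 members were called, BBC3 being added in OE. Of 432 differences of members and TRAP1 under the alternatives, 408 kept their direction and their side of the threshold, 7 lost the call, 10 gained it and 7 changed sign.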

Other observations

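Among 10 reported regulators of the family, 2 rose and 5 fell in KD and likewise in OE (70.0% called in each, against 53.7% and 34.8% of all genes, and 72.8% and 52.8% of those with a mean rlog value of at least 5). E2F1, a cell cycle factor that also drives apoptosis genes, fell from 11.14 ± 0.025 to 10.32 ± 0.029 in KD and 10.61 ± 0.019 in OE (SD, n = 3), differences of -0.83 and -0.54 (adjusted p = 4.5e-24 and 2.59e-18 from limma). It lies in the same block of chromosome 20 as BCL2L1, whose neighbours had medians of -0.27 and -0.098. MDM2, a ubiquitin ligase, fell by 0.42 and 0.25, and TP73 by 0.25 and 0.32 (adjusted p = 1.17e-17, 1.32e-11, 2.78e-06 and 9.09e-08 from limma). EPAS1 rose by 0.31 in OE (adjusted p = 1.89e-06 from limma).

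Of 4 genes that control the stability of the MCL1 protein, the ligase HUWE1 and the deubiquitinase USP9X rose in KD by 0.091 and 0.16, and the ligases FBXW7 and MARCHF5 fell by 0.083 and 0.076 (adjusted p = 4.94e-08, 9.5e-09, 0.0309 and 0.012 from limma). In OE only USP9X was called, at 0.084 (adjusted p = 5.65e-04 from limma). All 4 were thus called in KD and 1 of 4 in OE, beside the same shares of 53.7% and 34.8% of all genes, and 72.8% and 52.8% of those with a mean rlog value of at least 5.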
